A study of Mus musculus with 20 samples.

Results

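Mature oligodendrocytes express, beside the proteins of compact myelin, a set of genes for enzymes, channels and cytoskeletal proteins, and 7 of these were followed in the cerebellum of a knock-in mouse model of spinocerebellar ataxia type 3. They were Klk6, a secreted serine protease of the kallikrein family, Prrg1, a membrane protein with a vitamin K dependent Gla domain, Car2, the cytosolic carbonic anhydrase II, the gap junction genes Gjb1 (connexin 32) and Gjc3 (connexin 29), the septin-binding scaffold gene Anln (anillin), and Ermn (ermin), an actin-binding protein of the myelin sheath. The members are these 7 of the 29200 genes in the count table. The study picked Klk6 and Prrg1 among genes that differed between genotypes in mice of either age and also in the cerebellum of patients, so that measured values of both genotype contrasts selected them, and no test is given for either gene. The other 5 were listed as oligodendrocyte-enriched genes with results of these data known. All 7 passed the filter on low counts, which left 12153 genes.

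RNA from the cerebellum was sequenced in 20 mice, 5 in each of 4 groups: WT/WT at 2 months, 304Q/304Q at 2 months, WT/WT at 12 months and 304Q/304Q at 12 months. All were male C57BL6/N littermates of 1 line, made with a zinc-finger nuclease. In 304Q/304Q mice both copies of Atxn3, which encodes ataxin-3, carried an expanded repeat for 304 glutamines, interrupted by CAA codons, in the gene's own locus and thus in every cell that expresses it, and WT/WT mice carried no expansion. The labels name the wild-type allele as ataxin-2 and the repeat as CAG, whereas the study describes Atxn3. In bulk tissue, fewer oligodendrocytes and less RNA of a gene in each oligodendrocyte cannot be told apart.

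Oligodendrocytes mature from precursor cells through a newly formed stage and then wrap axons with myelin. Connexins of oligodendrocytes form gap junctions between layers of the sheath and, with partner connexins, to astrocytes, and carbonic anhydrase II interconverts carbon dioxide and bicarbonate in the oligodendrocyte cytosol. Septin filaments held by anillin line the inner sheath, and ermin marks the late stage at which the sheath compacts. Klk6 cleaves myelin and matrix proteins outside the cell, and the cerebellar white matter and granule layer hold the oligodendrocytes from which such transcripts come.

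The libraries held 11385380 to 27636687 counts each (median 13522932.5), and the deepest was a 304Q/304Q mouse at 2 months, against 16606406 in the next. Normalized counts, which are counts scaled to the mean effective library size, of Atxn3 ranged from 240 to 332 in WT/WT and 158 to 241 in 304Q/304Q mice at 2 months, and from 202 to 234 and 181 to 220 at 12 months; the count table cannot show the repeat. Structural myelin genes were detected in every library, with a summed normalized count over 10 genes of 48870 to 92810. The summed level of 5 endothelial markers ranged from 2380 to 2915. The choroid plexus marker Ttr ranged from 14.9 to 28540 normalized counts, and it is given again beside Car2.

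The members lie on 6 chromosomes, 2 of them on X. In GRCm38 coordinates (GENCODE M21), Klk6 spans 43824499 to 43832030 on the plus strand of chromosome 7 and Car2 14886273 to 14900770 on the plus strand of chromosome 3. Gjb1 spans 101376378 to 101385629 on the plus strand of chromosome X and Prrg1 78449613 to 78583896 on its minus strand. Gjc3 spans 137953461 to 137963098 on chromosome 5, Anln 22332012 to 22389188 on chromosome 9 and Ermn 58045113 to 58052864 on chromosome 2, all on the minus strand. Ermn shares 237 exonic bases with Galnt5 on the opposite strand. Galnt5 had 0 to 3.75 normalized counts in the 20 libraries, whereas Ermn had 560 or more.

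The promoters of Klk6, Ermn and Gjc3 are shown because, among the members with a listed promoter, their counts moved most clearly with genotype or age. The sequences are from RefSeq (GRCm38.p6) and run 5′ to 3′ on the gene's strand from 250 bases before to 50 bases after the start. Capitals mark matches, on either strand, to ACAAAG or ACAATG, core letters bound by Sox proteins such as Sox10, the oligodendrocyte lineage factor. CTGGNAC, letters bound by Myrf, was searched as well, and no match overlapped another in the windows shown. Klk6 is at chr7:43824294-43824593 on the plus strand, Ermn at chr2:58052815-58053114 and Gjc3 at chr5:137963049-137963348, both on the minus strand.
Klk6: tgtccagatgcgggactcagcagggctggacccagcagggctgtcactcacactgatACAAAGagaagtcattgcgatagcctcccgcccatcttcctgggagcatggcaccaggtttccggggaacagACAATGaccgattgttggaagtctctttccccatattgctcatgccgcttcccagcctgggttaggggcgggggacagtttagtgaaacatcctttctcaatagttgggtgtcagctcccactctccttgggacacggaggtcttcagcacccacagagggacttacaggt
Ermn: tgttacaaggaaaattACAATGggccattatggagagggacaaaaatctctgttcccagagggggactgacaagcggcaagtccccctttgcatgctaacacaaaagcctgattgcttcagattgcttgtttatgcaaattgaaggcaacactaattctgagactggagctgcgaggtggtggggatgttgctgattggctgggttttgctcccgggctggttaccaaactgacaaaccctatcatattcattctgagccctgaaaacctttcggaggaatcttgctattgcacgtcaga
Gjc3: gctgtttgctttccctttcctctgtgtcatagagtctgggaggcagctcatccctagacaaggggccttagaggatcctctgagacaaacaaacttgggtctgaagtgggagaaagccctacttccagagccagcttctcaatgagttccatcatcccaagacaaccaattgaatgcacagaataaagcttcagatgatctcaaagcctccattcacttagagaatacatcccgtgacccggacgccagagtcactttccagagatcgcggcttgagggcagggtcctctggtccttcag
The Klk6 window held 1 ACAAAG, which starts 193 bases before the start, and 1 ACAATG, which starts 121 bases before it. The Ermn window held 1 ACAATG, 234 bases before the start, and the Gjc3 window held neither. Among the 6 members with a listed promoter, the Gjb1 window also held 1 ACAAAG and those of Prrg1 and Anln held none, and CTGGNAC was in none of the 6 windows. Of all 32851 listed promoter windows of the same length, 18.7% held ACAAAG, 12.6% held ACAATG and 19.3% held CTGGNAC. Gjb1 had 4 listed starts and Klk6 and Prrg1 had 2 each, and the window of 1 start was searched for each gene. A match is a description of the letters only.

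Levels of the members were compared per length, in CPM per kilobase of exon (CPM per kb), where CPM scales the counts to a common library total. In WT/WT mice at 2 months Car2 was the most abundant at 59.1 ± 6.25 CPM per kb (SD, n = 5), followed by Ermn at 17.4 ± 1.65, Gjc3 at 14.9 ± 1.32, Gjb1 at 13.8 ± 1.44 and Klk6 at 12.3 ± 2.79. Anln was at 3.82 ± 0.397 and Prrg1 at 0.682 ± 0.284 CPM per kb. Car2 stood above every other member in all 5 mice, Anln and Prrg1 below the rest, and each neighbouring pair among Ermn, Gjc3, Gjb1 and Klk6 overlapped. Over all mice Car2 was at percentile 93.9 and Prrg1 at percentile 0.955 of level per length among the genes tested. In 304Q/304Q mice at 12 months the order was Car2, Ermn, Gjc3, Gjb1, Klk6, Anln and Prrg1 again, and Klk6, at 6.57 ± 0.959 CPM per kb, did not overlap Gjb1 at 11.8 ± 1.77.

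**Figure D1:**
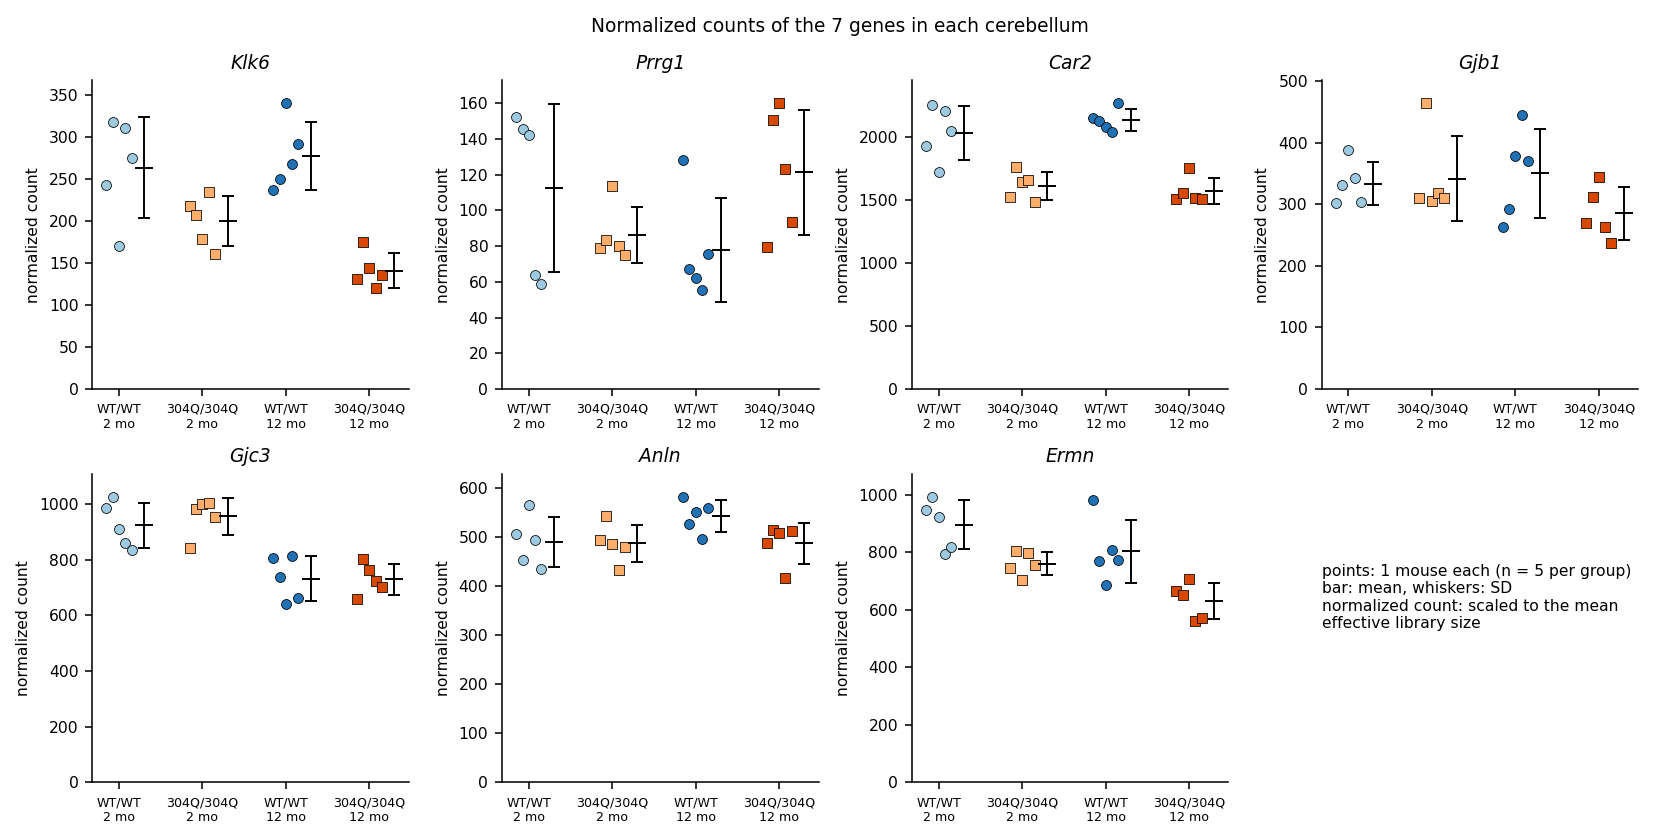
Normalized counts (vertical axis, from 0) of each of the 7 genes in the 4 groups (horizontal axis). Each point is 1 mouse, the bar the group mean and the whiskers the SD (n = 5). Klk6 and Car2 at 12 months separate the genotypes, and Gjc3 separates the ages in both genotypes.

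The protease Klk6 was the member whose values differed most between genotypes. Its normalized counts at 12 months were 237, 251, 341, 269 and 292 in the 5 WT/WT mice and 131, 175, 144, 121 and 135 in the 5 304Q/304Q mice. Every 304Q/304Q value lay below every WT/WT value. The means were 278 ± 40.8 and 141 ± 20.6 (SD, n = 5), a log2 fold change of -0.98 (SE 0.152), or 0.508-fold. The study chose Klk6 on measured values of the genotypes, and the value is a description.

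At 2 months Klk6 was at 243, 318, 171, 311 and 275 normalized counts in WT/WT and 218, 208, 179, 234 and 161 in 304Q/304Q mice. The groups overlapped, with 1 WT/WT mouse among the lowest values. The log2 fold change was -0.40 (SE 0.146), again a description, since this contrast entered the choice too. With age, Klk6 differed by a log2 fold change of 0.07 (SE 0.145) in WT/WT and -0.51 (SE 0.152) in 304Q/304Q mice, given without a test. The genotype effect differed between ages by -0.58 on the log2 scale (SE 0.210), also a description.

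Klk6 was the single kallikrein in the list that passed the filter. Klk8, a protease of neurons and of injured oligodendrocytes, averaged 8.26 normalized counts, and Klk7, Klk9, Klk10, Klk11 and Klk13 averaged between 0.106 and 2.09. F2r, a receptor that Klk6 can cleave, was at 69.1 ± 14.8 in 304Q/304Q and 83.7 ± 13.7 in WT/WT mice at 12 months (SD, n = 5) and did not pass the test (edgeR adjusted p = 0.285).

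Car2 was on average lower in 304Q/304Q mice at both ages, and the genotype effects differed by -0.11 on the log2 scale (SE 0.093). At 2 months the 5 WT/WT mice had 1928, 2255, 1725, 2205 and 2046 normalized counts and the 5 304Q/304Q mice 1521, 1763, 1645, 1655 and 1486. A single WT/WT mouse, at 1725, lay below the highest 304Q/304Q value. The log2 fold change was -0.33 (SE 0.066, interval -0.46 to -0.20), with an adjusted p of 0.0642 (edgeR quasi-likelihood test over 12153 genes), above the threshold of 0.05. The call depended on the processing: 5 of 9 other settings passed the threshold, among them DESeq2 (adjusted p = 0.00378) and edgeR with the GC trend removed (adjusted p = 0.00904), with fold changes from -0.36 to -0.33 over all 9. Leaving out WT/WT replicate 3 at 2 months, 304Q/304Q replicate 2 at 2 months, WT/WT replicate 1 at 12 months or 304Q/304Q replicate 3 at 12 months also brought the adjusted p under it, to between 0.00733 and 0.0486.

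At 12 months Car2 was at 2149, 2123, 2080, 2038 and 2268 normalized counts in WT/WT and 1510, 1559, 1753, 1514 and 1510 in 304Q/304Q mice. All 5 304Q/304Q values lay below all 5 WT/WT values, with a log2 fold change of -0.44 (SE 0.066). Age did not move Car2 past the threshold in WT/WT (log2 fold change 0.07, SE 0.066, edgeR adjusted p = 0.524) or in 304Q/304Q mice (-0.04, SE 0.066, adjusted p = 0.817).

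Choroid plexus also makes carbonic anhydrase II, and its markers varied between dissections. Of the 5 markers on the list 3 passed the filter, and Folr1 and Aqp1 were at 0 in at least 1 library. Their summed normalized count ranged from 149 to 250 in WT/WT and 174 to 24320 in 304Q/304Q mice at 2 months, and from 279 to 29830 and 193 to 21230 at 12 months. At 2 months the median marker sum was 415 in 304Q/304Q and 195 in WT/WT mice. In WT/WT mice at 12 months, Ttr was at 5319, 28540, 110, 90.2 and 13570 normalized counts in the mice with 2149, 2123, 2080, 2038 and 2268 of Car2, so that the 3 mice with the higher Ttr also had the higher Car2. In 304Q/304Q mice at 12 months, the mice with Ttr at 20310 and 18870 had 1510 and 1753 of Car2. The other mice of that group had 47.2 to 97.4 of Ttr and 1510 to 1559 of Car2. Among 304Q/304Q mice at 2 months, the mouse with 23210 of Ttr had 1645 of Car2, in a group at 1486 to 1763. The part of choroid plexus in the Car2 values was not tested.

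Car2 shares its family with 10 other carbonic anhydrases that passed the filter. At 12 months 5 of these 10 genes were called lower in 304Q/304Q mice and 0 higher, where 7.3% of all genes tested were called lower. The median log2 fold change of the 11 genes, Car2 included, was -0.36, against -0.00 over all genes tested. Of the 5 called lower, Car9, a membrane enzyme induced in hypoxia (-0.89, SE 0.189, edgeR adjusted p = 0.00244), and Car7, a neuronal cytosolic form (-0.44, SE 0.068, adjusted p = 8.13e-05), had the largest log2 fold changes in size. The study itself named Car9 among genes that differed between genotypes in these samples, so that its p is no independent test. The remaining 3, named after their values were seen, were Car4, Car11 and Car14. Car8, a catalytically inactive member that marks Purkinje cells, was at -0.24 (SE 0.080, adjusted p = 0.0501). At 2 months 0 of the 11 were called.

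Ermn was on average lower in 304Q/304Q mice at both ages, and the genotype effects differed by -0.12 on the log2 scale (SE 0.123). Its normalized counts at 2 months were 947, 995, 925, 796 and 820 in WT/WT and 746, 805, 703, 797 and 756 in 304Q/304Q mice. A single WT/WT mouse, at 796, lay within the 304Q/304Q range. The log2 fold change of -0.24 (SE 0.086) did not pass the test at 2 months (edgeR adjusted p = 0.764). At 12 months the WT/WT mice had 984, 771, 687, 807 and 775 and the 304Q/304Q mice 666, 652, 706, 560 and 571 normalized counts. A WT/WT mouse at 687 lay below 1 304Q/304Q mouse, and the log2 fold change was -0.35 (SE 0.088), given as a description.

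With age, Ermn was at a log2 fold change of -0.16 (SE 0.086, edgeR adjusted p = 0.246) in WT/WT and -0.27 (SE 0.087, adjusted p = 0.0601) in 304Q/304Q mice. In 304Q/304Q mice the adjusted p fell to between 0.00268 and 0.0368 in 5 of 9 other settings and to between 0.0246 and 0.046 in 3 of 20 refits without 1 library (WT/WT replicate 1 or 3 or 304Q/304Q replicate 3 at 12 months). In WT/WT mice it was 0.0365 without WT/WT replicate 1 at 12 months. Ermn has a low GC content (38% of exonic bases, percentile 2.21 of genes tested), and with the GC and length trend of each library removed its age difference in WT/WT mice was 0.00 (SE 0.070) and its genotype difference at 12 months -0.50 (SE 0.071).

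Ermin resembles the ERM proteins that tie actin to membranes. The 4 genes listed were those of the ERM proteins (Ezr, Rdx and Msn) and the related gene Nf2. At 12 months 0 of 4 were called between genotypes, and the log2 fold changes of Ezr, Rdx and Msn were 0.28 (SE 0.134), 0.15 (SE 0.071) and 0.13 (SE 0.065), with edgeR adjusted p of 0.183, 0.18 and 0.189. Ezrin (Ezr) rose with age in both genotypes, by 0.50 in WT/WT (SE 0.137, edgeR adjusted p = 0.0199) and by 0.57 in 304Q/304Q mice (SE 0.135, adjusted p = 0.00805).

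**Figure D2:**
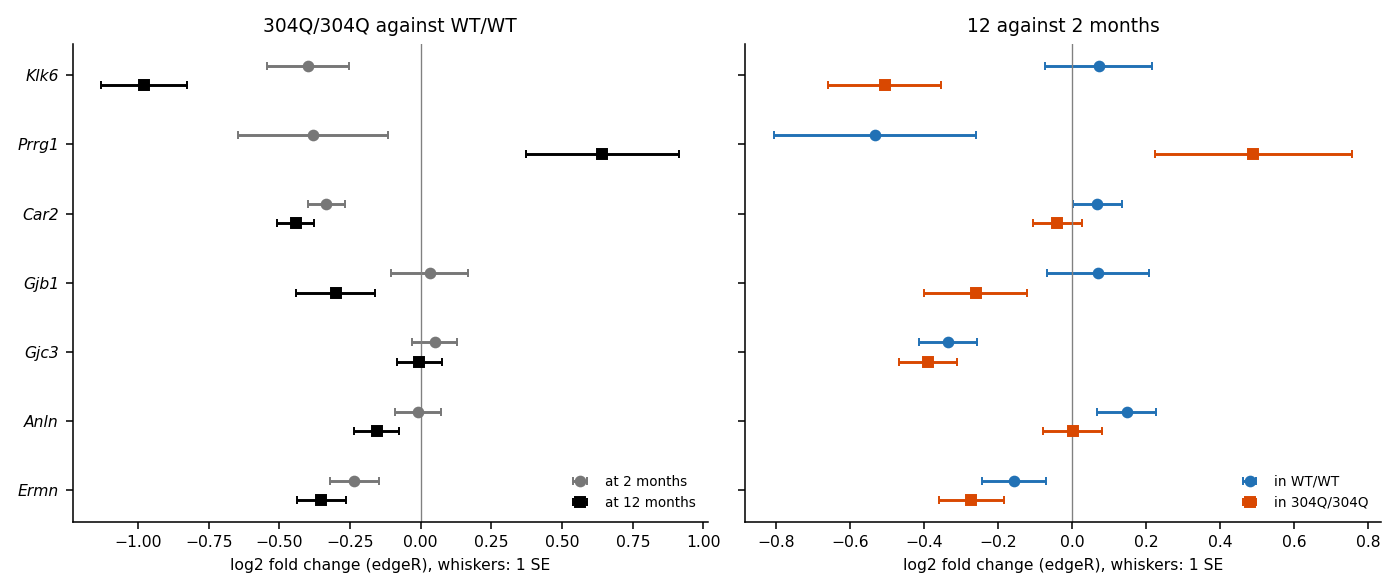
Log2 fold changes (horizontal axis, edgeR) of the 7 genes with 1 SE as whiskers, for 304Q/304Q against WT/WT at each age (left) and 12 against 2 months in each genotype (right). Klk6, Car2 and Ermn lie below 0 at both ages on the left, Prrg1 changes sign, and Gjc3 lies near 0 on the left and below 0 on the right.

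Gjc3, a connexin of the inner, axon-facing membranes of the sheath, followed age and not genotype past the threshold. The 5 WT/WT mice had 985, 1026, 911, 859 and 833 normalized counts at 2 months and 807, 737, 639, 813 and 661 at 12 months. The 5 304Q/304Q mice had 841, 982, 998, 1003 and 953 at 2 months and 659, 803, 761, 722 and 701 at 12 months. In both genotypes all 12-month values lay below all 2-month values. Gjc3 fell with age by 0.33 on the log2 scale (SE 0.079) in WT/WT mice (edgeR adjusted p = 0.00897) and by 0.39 (SE 0.079) in 304Q/304Q mice (adjusted p = 0.00215).

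The call in 304Q/304Q mice held in all 9 other settings and in all 20 refits without 1 library. In WT/WT mice it was lost with surrogate variables in the model (adjusted p = 0.0737 in edgeR, 0.0568 in DESeq2). Between genotypes Gjc3 differed by 0.05 (SE 0.078, interval -0.10 to 0.20, adjusted p = 0.963) at 2 months and by -0.01 (SE 0.080) at 12 months. The age effects of the 2 genotypes differed by -0.05 (SE 0.112).

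Gjb1 was not called in any contrast in which it was tested. Its normalized counts were 302 to 388 (median 332) in WT/WT and 305 to 464 (median 311) in 304Q/304Q mice at 2 months, and 264 to 445 (median 371) and 237 to 345 (median 270) at 12 months. The genotypes overlapped at both ages, with log2 fold changes of 0.03 (SE 0.138, edgeR adjusted p = 0.986) at 2 months and -0.30 (SE 0.140) at 12 months. With age it differed by 0.07 (SE 0.138, adjusted p = 0.779) in WT/WT and -0.26 (SE 0.139, adjusted p = 0.324) in 304Q/304Q mice. The last value was -0.12 without 304Q/304Q replicate 2 at 2 months, the mouse at 464, and the genotype difference at 12 months was -0.20 without WT/WT replicate 4 at 12 months.

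Of 6 glial connexins only Gjb6 was called between genotypes at 12 months in this fit, where 7.3% of all genes tested were called lower. This astrocyte gene (connexin 30) fell from 943 ± 111 to 642 ± 37.3 normalized counts (SD, n = 5), a log2 fold change of -0.55 (SE 0.093, edgeR adjusted p = 0.000214). Gja1 (connexin 43), the other main astrocyte connexin, was at -0.18 (SE 0.083, edgeR adjusted p = 0.158). All 6 had a log2 fold change below 0 at 12 months, from -0.55 to -0.01, and 2 of 6 at 2 months, where 0 were called. With age Gjb6 was at 0.30 (SE 0.092, edgeR adjusted p = 0.0362) in WT/WT and -0.12 (SE 0.093, adjusted p = 0.554) in 304Q/304Q mice.

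Anln was the steadiest member across genotypes at 2 months. It had 436 to 567 (median 494) normalized counts in WT/WT and 434 to 543 (median 487) in 304Q/304Q mice at 2 months, and 497 to 583 (median 551) and 416 to 515 (median 509) at 12 months. All groups overlapped. The genotype difference was -0.01 (SE 0.080, interval -0.17 to 0.15, edgeR adjusted p = 0.993) at 2 months and -0.16 (SE 0.080) at 12 months. Its age difference was 0.15 (SE 0.080, adjusted p = 0.236) in WT/WT and 0.00 (SE 0.080, adjusted p = 0.994) in 304Q/304Q mice. The first became 0.25 (SE 0.079, adjusted p = 0.0484) with the GC and length trend removed.

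Anillin also works at the cleavage furrow of dividing cells, and most genes of cell division had few counts here. Mki67, the proliferation marker, averaged 5.47 and Top2a, topoisomerase II alpha, 5.05 normalized counts against 503 for Anln. Of 12 genes of dividing cells 2 passed the filter, Racgap1 and Prc1, and 0 were called in any of the 4 comparisons of groups. Among 9 septins and Rhoa, the cytoskeletal partners of anillin, 3 were called lower at 12 months in 304Q/304Q mice and 0 higher. Of all genes tested 7.3% were called lower. The 3 were Sept11 (-0.28, SE 0.065, edgeR adjusted p = 0.00558), Sept5 (-0.22, SE 0.060, adjusted p = 0.0187) and Sept4 (-0.19, SE 0.060, adjusted p = 0.042). Over the 10 genes the median log2 fold change was 0.04, with 5 below 0.

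Prrg1 was the least abundant member and, in 3 of 4 groups, the most variable between mice. Its normalized counts at 2 months were 152, 146, 142, 63.7 and 58.8 in WT/WT and 79.1, 83.7, 113, 80.2 and 74.9 in 304Q/304Q mice. At 12 months they were 128, 67.4, 62.0, 55.1 and 75.5 in WT/WT and 79.2, 151, 160, 123 and 93.3 in 304Q/304Q mice. Among WT/WT mice 3 lay at 142 to 152 and 2 at 58.8 to 63.7 at 2 months, whereas 1 lay at 128 and 4 at 55.1 to 75.5 at 12 months, and the genotypes overlapped at both ages. The coefficient of variation was 41.7% and 37.6% in WT/WT mice at 2 and 12 months, against 4.09% to 22.7% for the other 6 members in those groups. In 304Q/304Q mice at 2 months it was 18%, against 20.1% for Gjb1.

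The log2 fold change of Prrg1 between genotypes was -0.38 (SE 0.267) at 2 months and 0.64 (SE 0.271) at 12 months. With age it was -0.53 (SE 0.272) in WT/WT and 0.49 (SE 0.266) in 304Q/304Q mice, and the difference of the genotype effect between ages was 1.02 (SE 0.380). These 5 values are a description with no test. WT/WT replicate 1 at 12 months was the high value of its group, and without it the 12-month value was 0.89.

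Prrg1 has a GC content of 33.4% over 11614 exonic bases, at percentile 0.0494 of the genes tested, and its counts moved with a property of the libraries. The GC trend of a library is the fitted log2 deviation of its counts at the 90th percentile of GC content (57.95%) minus that at the 10th (41.33%). A value below 0 means relatively more counts from low-GC genes, and it ranged from -0.247 to 0.271. The 4 WT/WT mice with Prrg1 at 128 or more were the 4 with a trend below 0 (-0.247, -0.172, -0.191 and -0.106), and the other 6 WT/WT mice, at 55.1 to 75.5 normalized counts, had trends of 0.0822 to 0.271.

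Among 304Q/304Q mice the relation was looser. The mouse with the trend of -0.201 had 74.9 normalized counts of Prrg1, and the mouse with 160 had a trend of -0.0762. With the trend of GC and length removed, the Prrg1 difference between genotypes was -0.23 (SE 0.204) at 2 months and 0.38 (SE 0.207) at 12 months, the age difference in WT/WT mice -0.18 (SE 0.208) and the difference of the genotype effect 0.61 (SE 0.291).

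**Figure D3:**
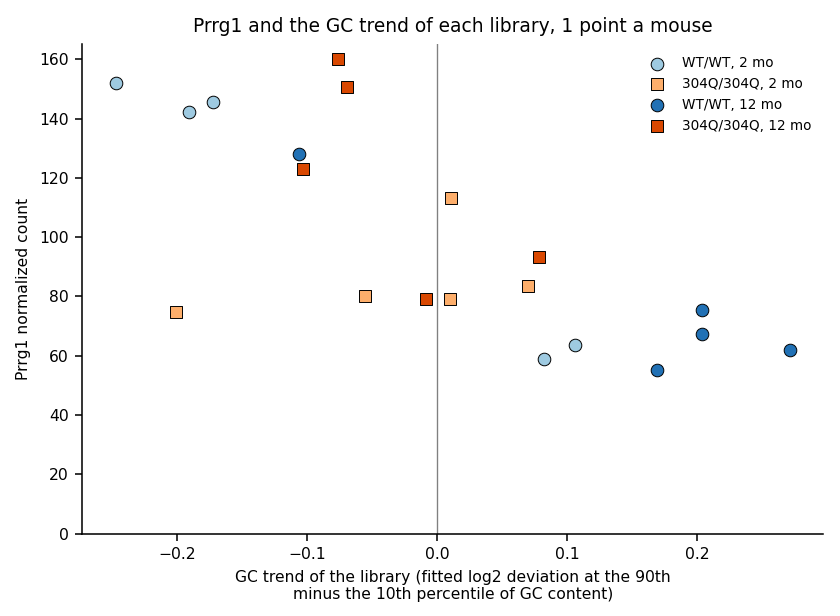
Normalized count of Prrg1 (vertical axis, from 0) against the GC trend of each library (horizontal axis, log2), 1 point a mouse, 20 mice in 4 groups. The 4 WT/WT mice left of 0 lie at 128 to 152, the 6 right of 0 at 55.1 to 75.5, and 304Q/304Q mice are spread between 74.9 and 160.

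Other genes of the Gla family or of vitamin K dependent carboxylation were read beside Prrg1. Of 5 that passed the filter, Prrg1 included, Prrg3 was called higher in 304Q/304Q mice at 12 months (0.44, SE 0.125, edgeR adjusted p = 0.0209) at 342 ± 51.5 against 253 ± 37.9 normalized counts. Of all genes tested 5.23% were called higher there. At 2 months Prrg3 was at 0.10 (SE 0.122, adjusted p = 0.952).

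Read together, the members were called as follows. At 2 months 0 of 7 members passed an adjusted p of 0.05 between genotypes, where 0.0494% of the genes tested (6 of 12153) did, 674 genes had an unadjusted p under 0.05 and DESeq2 called 22. Klk6 and Prrg1 were chosen with this contrast, so that the count is read only for the other 5. Those 5 were themselves listed with earlier results of these data known. Of these 5, Car2 and Ermn had an unadjusted p under 0.05, and DESeq2 called Car2. The groups did not overlap, with 304Q/304Q lower, in 0 members and 0.551% of genes. The median log2 fold change of the 7 was -0.24, against -0.00 for all genes. It was -0.14 in edgeR and -0.13 in DESeq2 with 3 surrogate variables in the model. This median holds Klk6 and Prrg1, and nothing is read from it. The other 5 were at -0.33 (Car2), -0.24 (Ermn), -0.01 (Anln), 0.03 (Gjb1) and 0.05 (Gjc3).

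At 12 months 3 of 7 members (Klk6, Car2 and Ermn) were lower and within the threshold of 0.05, as a description and not a test. Of all genes tested 7.3% were called lower and 5.23% higher. In 2 members (Klk6 and Car2) the groups did not overlap, against 5.43% of genes. The difference of the genotype effect between ages was called in 0 of 7 members and 1.95% of genes. DESeq2 called 0 members and 395 genes there, and 1934 genes had an unadjusted p under 0.05. Nothing is read from the counts of members at 12 months or in the difference between ages, because the 12-month contrast entered the choice.

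With age, 1 of the 5 members tested was called lower in each genotype, Gjc3 both times. The 5 were listed with earlier results of these data known. In WT/WT mice 5.42% and in 304Q/304Q mice 4.18% of genes tested were called lower, and 2.93% and 4.2% had 12-month values all below the 2-month values. The comparisons share groups of mice, so that the 4 values of a member are not independent.

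The rest of the oligodendrocyte lineage was read beside the members. At 12 months 9 of 27 other mature oligodendrocyte genes were called lower and 0 higher, with a median log2 fold change of -0.21. Over all genes tested, 7.3% were called lower and 5.23% higher in that contrast. The called decreases with the largest size were Hapln2, a link protein of the node of Ranvier that the study itself picked from these samples (-0.65, SE 0.102, edgeR adjusted p = 9.49e-05), Pdlim2 (-0.60, SE 0.146, adjusted p = 0.00767) and Ndrg1 (-0.41, SE 0.091, adjusted p = 0.00349). Of 10 structural myelin genes 4 were called lower and 0 higher (median -0.39), led by Mobp (-0.80, SE 0.066, adjusted p = 1.3e-08) and Mal (-0.61, SE 0.062, adjusted p = 2.53e-07). The study itself picked Mobp and Mal from these samples, so that their p at either age is no independent test. At 2 months Mal was called lower (-0.39, SE 0.061, adjusted p = 0.00668), and 0 of 27 other mature genes were called. Of all genes tested 0.0494% were called at that age.

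Earlier stages of the lineage were not called between genotypes. For 6 precursor genes the median log2 fold change was -0.01 at 2 months and 0.05 at 12 months, and for 6 genes of newly formed oligodendrocytes 0.09 and 0.24, with 0 called in either. All 6 of the latter had values above 0 at 12 months. Gpr17, a receptor of newly formed cells, fell with age by 1.22 on the log2 scale (SE 0.137, edgeR adjusted p = 4.36e-06) in WT/WT and by 0.70 (SE 0.134, adjusted p = 0.00133) in 304Q/304Q mice.

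**Figure D4:**
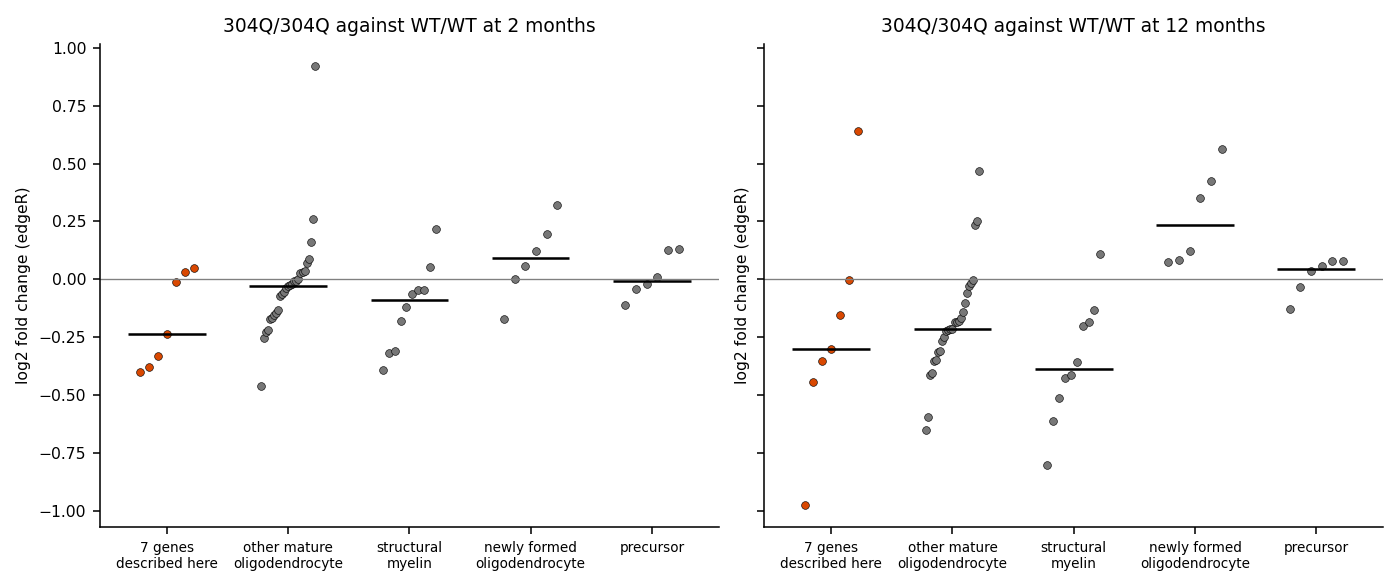
Log2 fold changes (vertical axis, edgeR) of 304Q/304Q against WT/WT at 2 months (left) and 12 months (right), 1 point a gene, with the median of each list as a line. At 12 months the medians are -0.30 for the 7 genes, -0.21 for 27 other mature oligodendrocyte genes, -0.39 for 10 structural myelin genes, 0.24 for newly formed and 0.05 for precursor genes.

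Each member was set against the 27 other genes listed for mature oligodendrocytes, as a description. These include Enpp2, which varied widely at 2 months (3637 ± 3909 normalized counts in 304Q/304Q and 1915 ± 93.5 in WT/WT mice, SD, n = 5). Its part in the mean of the list was not tested. The relative level is the log2 CPM of the member minus the mean log2 CPM of the 27 genes in the same mouse. For Klk6 this relative level was -1.31 to -0.88 in WT/WT and -2.09 to -1.71 in 304Q/304Q mice at 12 months, so that the groups did not overlap, with a difference of means of -0.78. For Car2 it was 1.71 to 1.88 and 1.43 to 1.62, again without overlap and with a difference of -0.26. The other 5 members overlapped at 12 months, with differences from -0.16 (Ermn) to 0.83 (Prrg1), and at 2 months all 7 overlapped. Relative to the structural myelin genes in place of these 27, Klk6 stayed apart (-0.60), whereas Car2 (-0.08) and Ermn (0.02) overlapped.

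With age, relative levels of all 7 members overlapped between 2 and 12 months in both genotypes. The relative level of Gjc3 differed by -0.38 with age in WT/WT mice and by -0.28 in 304Q/304Q mice. Against the structural myelin genes the Gjc3 differences were -0.13 and 0.07. Against those genes, Car2 at 12 months lay above all its 2-month values in WT/WT mice (difference 0.28), and in 304Q/304Q mice Prrg1 (0.90), Car2 (0.42) and Anln (0.46) did.

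**Figure D5:**
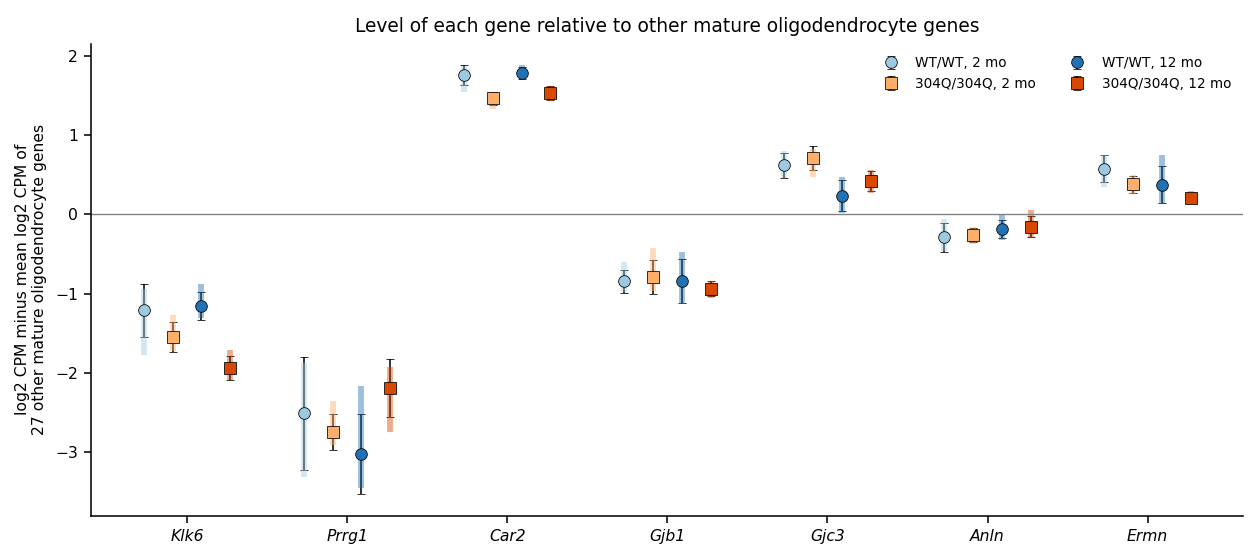
Log2 CPM of each gene minus the mean log2 CPM of 27 other mature oligodendrocyte genes in the same mouse (vertical axis), in the 4 groups. Markers are group means, black whiskers the SD and coloured bars the lowest to highest of 5 mice. At 12 months Klk6 and Car2 are apart between genotypes.

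Within groups the correlations between members were spread widely, and pairs of other genes were not set beside them. After the group mean of log2 CPM was subtracted, the 21 pairs of members had a median Pearson r of 0.17 over the 20 mice (range -0.251 to 0.636), and 14 were above 0. Klk6 went with Car2 (r = 0.636, Spearman rho = 0.454). Prrg1, Gjc3 and Ermn went with each other (r = 0.616 to 0.626), and these 3 have the lowest GC contents of the members (33.4%, 43.3% and 38%). The mice share libraries of differing GC trend and depth, and no p is given.

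The genes most like each member were ranked by the same r. With group means removed, the 3 nearest to Klk6 were Adgrg1 (r = 0.815), Bin1 (0.814) and Fabp5 (0.811), those to Prrg1 were Smarcad1 (0.928), Clcn4 (0.882) and Tmem255a (0.876), and those to Ermn were Acer3 (0.858), Tmem59 (0.834) and Gabpa (0.818). Those nearest to Car2 were Mrpl44 (0.800), 2410015M20Rik (0.772) and Txnrd3 (0.764), to Gjb1 Cfap97 (0.842), Dnpep (0.838) and Pycrl (0.838), to Gjc3 Umad1 (0.826), Nek1 (0.823) and Smim14 (0.811), and to Anln Commd6 (0.828), Proser1 (0.786) and Ubap1 (0.746). Of these 21 genes 10 were also among the nearest 3 by Spearman rho.

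Without that subtraction, over the same 20 mice, the list changed. Klk6 was nearest to Sez6l2 (r = 0.923), Mbp (0.890) and Gng13 (0.890), and Tmeff1 and Pde5a (0.877 each) were among the 3 nearest to Ermn. Mbp encodes a main protein of compact myelin. Car2 was nearest to Glul, the glutamine synthetase of glia (0.865), Prrg1 to G3bp2 (0.880), Gjb1 to Pycrl (0.838), Gjc3 to Nek1 (0.858) and Anln to Ubap1 (0.799). These values hold the differences between groups as well as those between mice.

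Markers of other cell types moved between the genotypes at 12 months, and their part in the values above was not tested. Over all genes tested, 7.3% were called lower and 5.23% higher at that age. Of 6 Purkinje cell markers 5 were called lower in 304Q/304Q mice, with a summed normalized count of 73240 to 78720 against 89770 to 98680. Of 6 microglia markers that passed the filter 1, C1qa, was called higher, and the summed level of the list was 1787 to 2312 against 1689 to 2091. Of 7 astrocyte markers 3 were called lower, with sums of 41200 to 43790 against 43870 to 47400. None of 5 granule cell, 5 endothelial, 4 tested meningeal and 1 tested Schwann cell markers was called at 12 months in this fit.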

How the data were processed

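Raw read counts per Ensembl gene were deposited by the authors, as whole numbers and without normalization. According to the methods and processing notes, poly(A) libraries were prepared with a stranded kit and read in pairs, and reads were aligned with STAR (version 2.4.5b in the processing notes) to GRCm38 and counted with Rsubread. Whether strand was used in counting is not given in the sources used here.

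A mean count of 50 or more over all libraries was required (12153 of 29200 genes, 99.31% of counts). Counts were fitted with edgeR 4.0.16 (quasi-likelihood F test, TMM scaling), 1 term per group over all 20 libraries, with Benjamini-Hochberg adjustment over all genes tested. A gene was called at an adjusted p of at most 0.05. SE is the size of the log2 fold change divided by the square root of F, and intervals (95%) reach 1.96 SE to each side. CPM on the log2 scale used a prior count of 2. The step was tested on simulated data. Alternatives used DESeq2 1.42.0, sva 3.50.0 with 3 surrogate variables, other scalings and filters, a replicate block, removal of each library's GC and length trend (12140 genes with values), and each library left out in turn. GENCODE M21 supplied symbols and coordinates.

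The members and gene lists were chosen with earlier results of these data known. The 2-month contrast was planned as independent of the choice of Klk6 and Prrg1, but the study's selection used genotype contrasts of both ages, so that neither gene is tested in it. Named genes were the 7 members, set partner genes, up to 3 genes called in each direction with the largest fold change per list and contrast, and the 3 genes most like each member. Within groups, pairs of libraries differed by more than sampling noise (chi-square per degree of freedom of at least 4.43). The labels do not say that equal replicate numbers mark a shared litter or day. The mice are separate animals. Depth varied 11385380 to 27636687 counts, and Prrg1, at 55 to 154 raw counts, has the largest counting error. Values of some listed genes are not reported here.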

Additional observations from a re-analysis of the deposited data

Results flagged for a closer look

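Values standing apart within a group of 5 mice were looked for in the 28 groups of the 7 genes, by the gap of the highest or lowest mouse to its nearest neighbour as a share of the group's range (Dixon's 95% limit, 0.71 for 5 samples). Chance marks about 1 in 20 groups, and 5 were marked. Gjb1 was at 464.4 normalized counts in 304Q/304Q replicate 2 at 2 months, where the next mouse had 318.6 (gap share 0.914). Car2 was at 1753 in 304Q/304Q replicate 3 at 12 months, next 1559 (0.799), in a library with 18870 normalized counts of Ttr. Replicate 1 of that group, with 20310 of Ttr, had 1510 of Car2. Prrg1 was at 113.4 in 304Q/304Q replicate 3 at 2 months, next 83.66 (0.772), and at 128 in WT/WT replicate 1 at 12 months, next 75.46 (0.721). The latter was the single WT/WT library at 12 months with a GC trend below 0 (-0.106). Anln was at 416.3 in 304Q/304Q replicate 4 at 12 months, next 487.7 (0.724). What set these mice apart was not tested.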

How the results depend on the processing

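Number of members called. At 2 months between genotypes it was 0, and 1 (Car2) with DESeq2, with surrogate variables in either tool, without the count filter and with the GC and length trend removed, and 0 to 1 without 1 library. At 12 months it was 3 in all 9 settings and 3 to 4 without 1 library (4 without WT/WT replicate 1 at 12 months). With age in WT/WT it was 1, but 0 with surrogate variables in either tool and 2 with the GC trend removed (1 to 2 without 1 library). In 304Q/304Q it was 1, but 2 with DESeq2, with surrogate variables in either tool, with only the groups compared and with the GC trend removed (1 to 2 without 1 library). For the difference between ages it was 0 in 8 settings and 0 to 1 without 1 library (1 without the same library). Nothing is read from the counts at 12 months and for the difference between ages, because the 12-month contrast entered the choice of members. Medians of the members hold Klk6 and Prrg1 and are a description. The median log2 fold change at 2 months, -0.24, became -0.14 (edgeR) and -0.13 (DESeq2) with surrogate variables. The WT/WT age median, 0.07, became -0.037 with the GC trend removed. Without 1 library the medians ranged from -0.28 to -0.19 at 2 months, -0.38 to -0.20 at 12 months (the last without WT/WT replicate 4), -0.048 to 0.082 with age in WT/WT (below 0 without replicate 3 at 2 months or 4 at 12 months), -0.31 to -0.12 in 304Q/304Q (the last without replicate 2 at 2 months), and -0.16 to -0.09 for the difference. Changed signs were near 0: at 2 months Gjb1 was -0.036 (edgeR) and -0.035 (DESeq2) with surrogate variables and -0.011 with the GC trend removed (-0.099 to 0.090 without 1 library), and Anln 0.011, 0.013 and 0.023 (-0.051 to 0.046). With age in WT/WT, GC removal gave Gjb1 -0.086 (-0.031 to 0.16 without 1 library) and Ermn 0.00056, and in 304Q/304Q Anln was -0.0044 without the filter (-0.036 to 0.054). The cause was not tested. Replicate numbers were shared across groups, but only 6 of 30 same-numbered pairs had deviations correlated above 0.1 (-0.323 to 0.551) and 4 of 20 libraries went best with their own number. With the replicate block the members called were 0, 3, 1, 1 and 0 in the 5 contrasts, with medians of -0.23, -0.30, 0.07, -0.26 and -0.12. Over all genes DESeq2 called 22 at 2 months against 6, edgeR with surrogate variables 46, DESeq2 with them 52, GC removal 19, the unfiltered fit 10 and only the groups compared 4. With age, counts moved over 1.5 times with surrogate variables (819 against 1398 in WT/WT, 1505 in edgeR and 1659 in DESeq2 against 882 in 304Q/304Q), GC removal (925 in WT/WT) and only the groups compared (739 in WT/WT), and for the difference DESeq2 called 395, and 418 with surrogate variables, against 237. Relative to structural myelin, 16 of 28 relative levels moved by more than 1 SD, and 0 of 280 did without 1 library. Of the 21 nearest genes 10 to 17 were kept without 1 library.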
